A study of Homo sapiens with 22 samples.

Results

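The 48 genes described here encode factors of the small subunit (SSU) processome and of the later steps that finish the 40S ribosomal subunit. The rule that chose them goes by name and uses no measured value, but it was set with earlier results of these data known, and all 48 were found by gene symbol among the 20411 genes listed for each of 2 acute myeloid leukemia (AML) cell lines, MOLM-13 and NB4. MOLM-13 carries a fusion of KMT2A (MLL) with MLLT3 (AF9), and NB4 is an acute promyelocytic line with a PML-RARA fusion. In each line, cells that received 2 μM FP54 were compared with cells that received the solvent DMSO, both for 48 hours, with 3 RNA-seq libraries of each kind. FP54 is a degrader (PROTAC) that joins a ligand of FTO, an enzyme that removes m6A marks from RNA, to a ligand of the VHL ubiquitin ligase. Of the 22 samples in the series these 12 were used, and the other 10 (m6A-seq and polysome sequencing) were not analysed here. No library with an inactive relative of FP54 was compared, so effects of FTO loss and of the molecule itself cannot be told apart.

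Ribosomes are built in the nucleolus, where RNA polymerase I makes 1 long precursor RNA that holds the rRNA of both subunits. The SSU processome forms on the front part of this precursor as it is being made. It contains the U3 small nucleolar RNA, which pairs with the precursor, and the subcomplexes UTP-A, UTP-B and UTP-C, together with helicases, nucleases and RNA-modifying enzymes. The particle is then taken apart and exported, and the last factors, with NOB1 as the final nuclease, leave it in the cytoplasm. Fast-growing cells such as leukemia blasts keep these genes highly active, and many of them are known targets of the transcription factor MYC.

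The values are RPKM, read counts divided by the length of the gene and by the depth of the library. Reads on genes ranged from 16313396 to 17362379 in the DMSO libraries of MOLM-13, from 5836560 to 19207420 in its FP54 libraries, from 20662773 to 22349822 in the DMSO libraries of NB4 and from 10602309 to 13079300 in its FP54 libraries. The shallowest was FP54 replicate 2 of MOLM-13. The myeloid markers PTPRC, CD33 and SPI1 were at 7.70 RPKM or more in all 12 libraries. HOXA9 was at 19.1 to 25.4 RPKM in MOLM-13 and at most 0.716 RPKM in NB4, and MPO was at 1082 RPKM or more in NB4. ELANE, fixed as an NB4 marker, was at most 0.218 RPKM there. NB4 also held the epithelial marker EPCAM (7.83 to 11.3 RPKM) and the T-cell marker CD3D. The 3 epithelial markers (EPCAM, KRT18 and KRT8) summed in NB4 to 20.1 to 21.96 RPKM with DMSO and 22.25 to 24.28 with FP54. They were also present in MOLM-13, with sums of 6.79 to 8.98 RPKM with DMSO and 5.02 to 7.37 with FP54. CD3E, CD2, MS4A1, HBB and DCN were at most 0.201 RPKM in every library of both lines. CD3D moved with treatment in NB4: the sum of the 3 T-cell markers was 6.04 to 7.01 RPKM with DMSO and 10.2 to 10.7 RPKM with FP54, nearly all of it CD3D, with the defining markers CD3E and CD2 near 0, and its part in the results was not tested. The sum of the 6 myeloid markers also moved there, at 2172 to 2418 RPKM with DMSO and 1203 to 1272 RPKM with FP54, most of it MPO, as did that of the 3 promyelocytic granule markers, at 64.25 to 80.8 RPKM with DMSO and 21.8 to 23.7 RPKM with FP54, and their part was not tested either. In MOLM-13 the myeloid sum was at 726 to 777 RPKM with DMSO and 803 to 1044 RPKM with FP54, and the T-cell sum at 0.502 to 0.614 and 0.265 to 0.303 RPKM. The granule markers, fixed for NB4, were higher in MOLM-13, at 622 to 922 RPKM with DMSO, so they go against the label of the lines, while HOXA9, MEIS1 and MPO go with it. The sum of the 4 markers fixed for MOLM-13 (HOXA9, MEIS1, HOXA10 and FLT3) was 92.2 to 130 RPKM in MOLM-13 with DMSO. In NB4 with DMSO this sum was lower, at 17.9 to 20.4 RPKM, but well above the level of HOXA9, so not every marker of that list was near 0 there. HOXA10 and FLT3 are not given singly here, so the genes named as going with the label do not cover the whole list. FTO mRNA had a log2 fold change of −0.00 (limma adjusted p = 0.989) in MOLM-13 and −0.41 (limma adjusted p = 0.0119) in NB4. FP54 acts on FTO protein, so these values do not check the labels. In bulk RNA, fewer cells of a type and less RNA per cell cannot be told apart. Nothing in the labels says that the 3 libraries of a group came from separate cultures, so p-values measure the spread between these libraries, which may be technical.

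With FP54, 16 of 46 tested factors were called lower in MOLM-13 and 31 of 47 in NB4, against 9.04% and 10.7% of all genes tested, and the others were not called. In MOLM-13 the median factor kept 63.4% of its DMSO level, from 33.9% for DDX10 to 111% for FCF1. In NB4 the median factor kept 66.4%, from 41.8% for LTV1 to 97.5% for KRR1. The lowest values belonged to the helicase DDX10 and to DCAF13 and RIOK1 in MOLM-13, and to LTV1, UTP20 and UTP15 in NB4. FP54 was compared with DMSO by limma on log2(RPKM + 0.1) over genes with a mean of at least 1 RPKM, and a gene was called where p was below 0.01 and the fitted change was 0.5 or more in size on the log2 scale.

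In MOLM-13, 46 of the 48 factors passed the filter on low values, and 45 of these 46 had a negative log2 fold change. At the cutoff, 16 were lower and 0 were higher, where 9.04% of all 9710 genes tested were lower and 9.3% higher. At a Benjamini-Hochberg adjusted p below 0.05 from limma with the same fold, 16 factors were again lower and 0 higher, against 8.95% and 9.22% of all genes. At an unadjusted p below 0.05 with no minimum fold, 31 were lower and 0 higher, against 17.4% and 17.6% of all genes. Limma-voom on the recovered reads called 20 lower and 0 higher, against 9.79% and 10.5% of all genes. The median log2 fold change of the factors was −0.61, and that of all genes tested was 0.00. For 19 of the 46 every FP54 library lay below every DMSO library, against 17% of all genes, and for 0 every FP54 library lay above, against 20.2%.

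In NB4, 47 of the 48 factors passed the filter, and all 47 of these had a negative log2 fold change. At the cutoff, 31 were lower and 0 were higher, where 10.7% of all 9853 genes tested were lower and 18.6% higher. Limma-voom also called 31 lower and 0 higher, against 10.7% and 19.1% of all genes. At an unadjusted p below 0.05 the limma fit put 43 lower and 0 higher, against 24.7% and 33.3% of all genes. When the minimum fold was dropped and limma's adjusted p had to be under 0.05, 42 of the 47 were lower and 0 higher, against 22% and 29.8% of all genes, so 11 factors passed the test but fell by less than the minimum fold. The median log2 fold change was −0.59, beside 0.07 for all genes tested. For 42 of the 47 every FP54 library lay below every DMSO library, against 26.2% of all genes, and for 0 every FP54 library lay above, against 34.3%. The split of all calls in NB4, 1050 lower and 1834 higher, depended on scaling: 36.4% of calls were lower as reported, 62.9% with median-ratio scaling and 51.6% with quantile normalization. Relative to the median of all genes, the factors' median was lower by 0.66, 0.66 and 0.47 on the log2 scale under these scalings in turn. The factors' own count was 42 of 47 lower with median-ratio scaling (20.4% of all genes) and 24 of 47 with quantile normalization (13.8%).

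**Figure D1:**
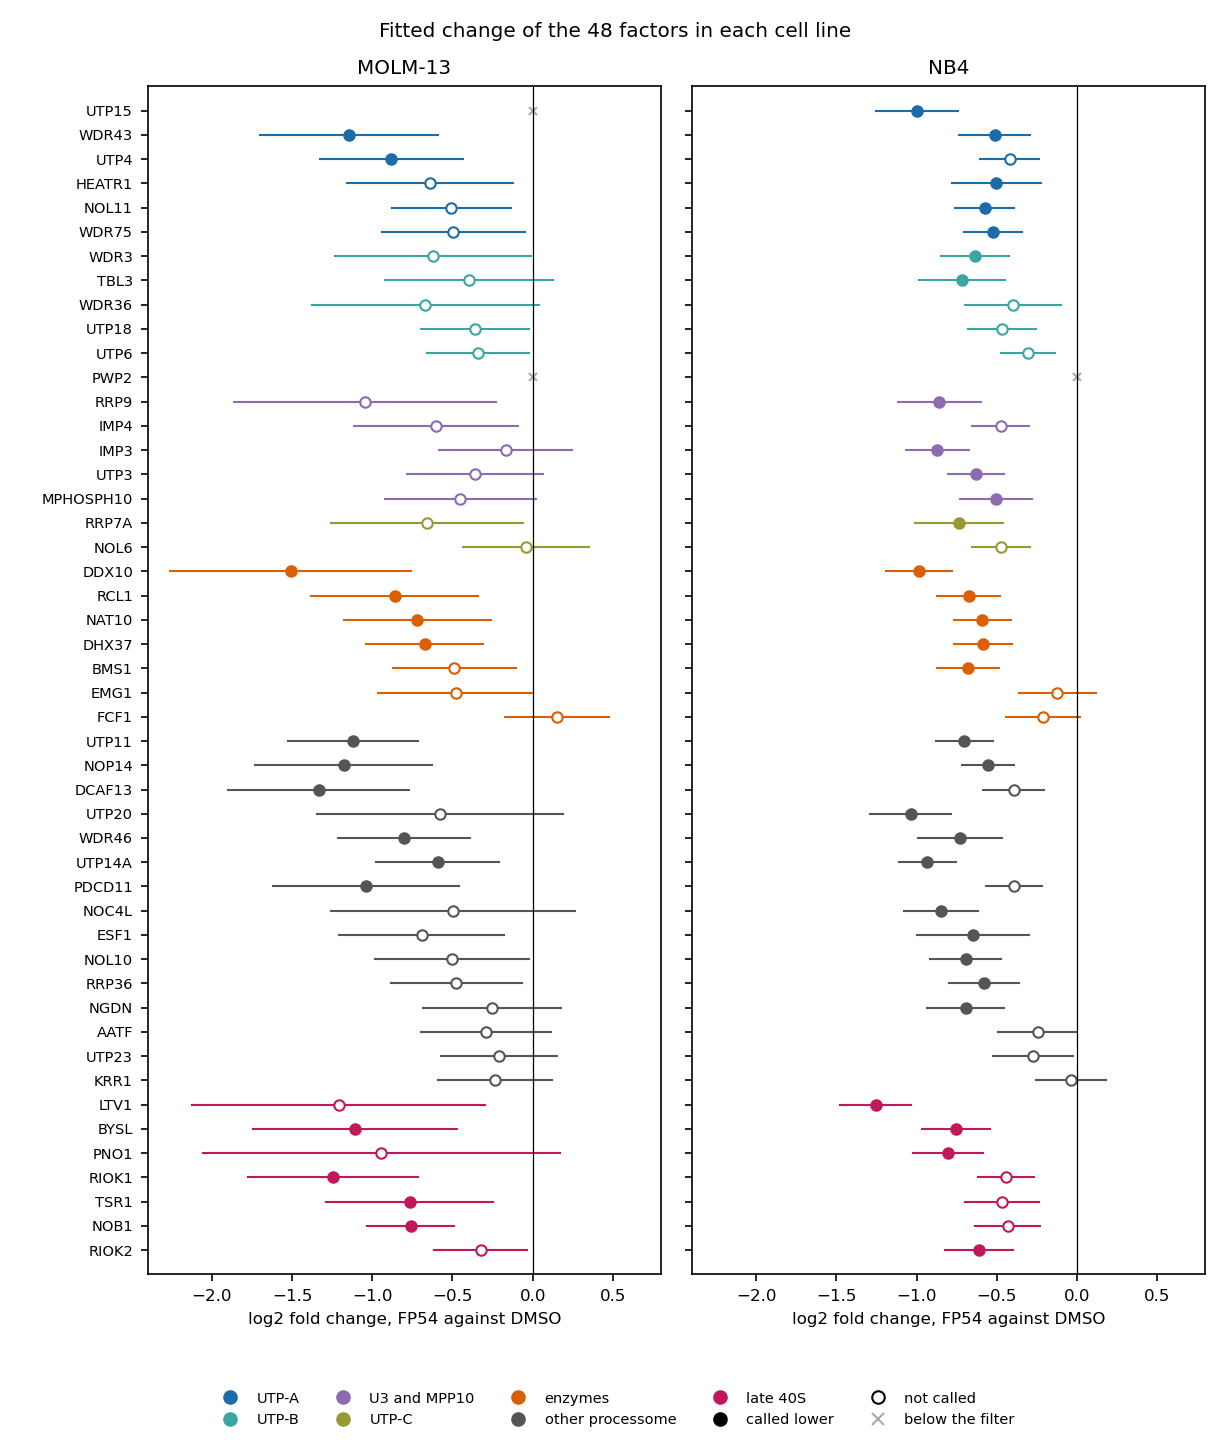
Fitted log2 fold change of each of the 48 factors (rows, coloured by role) with FP54 against DMSO in MOLM-13 (left) and NB4 (right); bars are 95% confidence intervals from limma, filled points were called lower, open points were not called, and crosses at 0 mark factors below the filter. Nearly every point lies left of 0 in both panels, and the bars are wider in MOLM-13, where the median standard error was 0.21 against 0.096 in NB4.

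The libraries of MOLM-13 varied more than those of NB4. The median coefficient of variation of the factors between DMSO libraries was 21.3% in MOLM-13 and 7.61% in NB4, and between FP54 libraries it was 21.4% and 4.82%. DMSO replicate 2 of MOLM-13 was the lowest DMSO library for 43 of the 46 factors, with a median 0.34 below the DMSO mean on the log2 scale, while the other DMSO libraries lay 0.15 and 0.22 above it. The 3 FP54 libraries had medians of −0.83, −0.48 and −0.57 against the DMSO mean, and FP54 replicate 1 was the lowest for 32 factors. Without DMSO replicate 2, 29 factors were called lower (12.4% of all genes) with a median log2 fold change of −0.85. The count was 10 when DMSO replicate 3 was left out (4.76% of all genes) and again 10 when FP54 replicate 1 was (5.19%), and leaving out the shallow FP54 replicate 2 gave 23 (8.81%). At an adjusted p below 0.05, limma called 8, 30 and 5 factors lower as DMSO replicates 1, 2 and 3 were left out in turn (3.64%, 13.1% and 2.31% of all genes), and 4 when FP54 replicate 1 was (2.20% of all genes). In NB4 the DMSO medians lay between −0.02 and 0.02 and the FP54 medians were −0.62, −0.60 and −0.57, and between 28 and 33 factors were called lower with any 1 library left out.

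**Figure D2:**
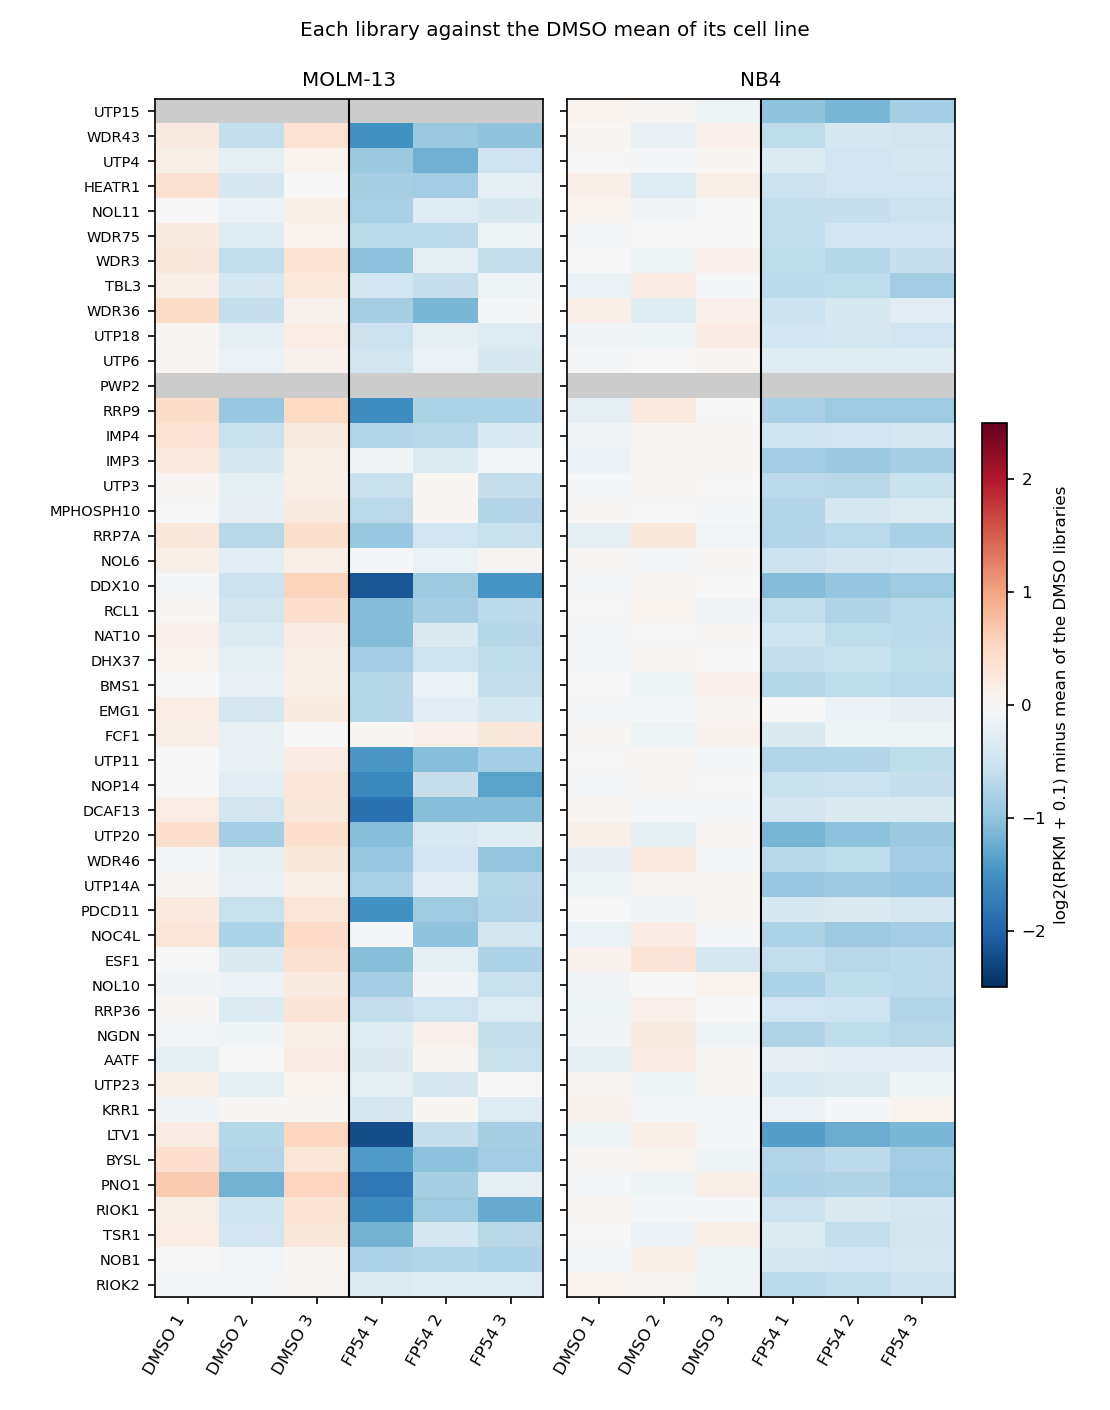
Heat map of log2(RPKM + 0.1) in each of the 12 libraries (columns) for each factor (rows) minus the mean of the 3 DMSO libraries of the same line; blue is lower and red is higher, and grey rows are factors below the filter. In MOLM-13 the DMSO replicate 2 column is bluish in all rows but KRR1 and AATF, with a median of −0.34, and FP54 replicate 1 is the deepest blue, with a median of −0.83; in NB4 the 3 FP54 columns look alike.

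Of the 46 factors tested in both lines, 10 were called lower in both, where 3.2% of the 8849 genes tested in both were. These were WDR43, RCL1, NAT10, DDX10, DHX37, UTP11, UTP14A, WDR46, NOP14 and BYSL. A further 6 were called in MOLM-13 alone (UTP4, DCAF13, PDCD11, RIOK1, TSR1 and NOB1), 20 in NB4 alone and 10 in neither. With each library left out in turn, 9 of the 16 calls in MOLM-13 remained in every fit by the unadjusted cutoff. These were UTP4, WDR43, DDX10, UTP11, WDR46, NOP14, DCAF13, RIOK1 and NOB1. Not all of them passed the adjusted threshold without FP54 replicate 1. The limma adjusted p was then 0.07277 for UTP4, 0.07409 for WDR43, 0.06975 for DDX10, 0.0841 for WDR46 and 0.06196 for NOP14. RIOK1 stood at the threshold, with 0.0499992. UTP11, DCAF13 and NOB1 stayed at a limma adjusted p of 0.03736 or less with any library left out. In NB4, 26 of the 31 calls remained in every such fit. The 7 calls of MOLM-13 lost in at least 1 such fit were RCL1, NAT10, DHX37, UTP14A, PDCD11, BYSL and TSR1. The 5 lost in NB4 were HEATR1, WDR43, WDR75, MPHOSPH10 and ESF1. With quantile normalization the NB4 calls of WDR43, NAT10 and NOP14, which are among the 10 shared, and of HEATR1, NOL11, WDR75, MPHOSPH10 and RRP36 were lost. In MOLM-13 NAT10 and TSR1 lost the call with no filter, and UTP14A and TSR1 with eBayes without a trend. UTP14A, among the 10 shared, also lost it in MOLM-13 with a block for the replicate number. In NB4 HEATR1 and MPHOSPH10 also lost the call with a pseudocount of 1.

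The promoters of the factors were read from RefSeq (GRCh38.p14) in a window of 300 bases, from 250 before to 50 after the annotated start. A window was found for 44 of the 48 factors, all but DCAF13, MPHOSPH10, NOL10 and UTP23. The letters CACGTG, the canonical E-box that MYC with MAX and other basic helix-loop-helix factors can bind, stood in 19 of the 44 windows (43.2%), against 10.7% of the 7946 windows of genes tested in MOLM-13, 10.7% of the 8085 in NB4 and 8.89% of the 15270 windows of all listed genes. The motif reads the same on both strands. Within 50 bases of the start on either side, a window chosen after the positions were seen, the share was 17 of 44 (38.6%), against 4.42% and 4.39% of genes tested in MOLM-13 and NB4. Of the 21 E-boxes found, 17 lay between 16 bases before and 41 bases after the start. The letters CCGGAAG, the core of sites for ETS-family factors, searched on both strands, were also in 19 of the 44 windows (43.2%), against 22.15% of genes tested in MOLM-13 and 22.34% in NB4. Some other lists held both motifs too, as the E-box was in 33.3% of the windows of the 60S assembly factors and 21.05% of those of other 40S biogenesis genes, and the ETS core in 48.7% and 36.8%. Of the 26 windows of the 40S ribosomal proteins, 1 held the E-box (3.85%) and 9 the ETS core (34.6%). A match is only a match of letters, and no binding was measured here. The 100 bases around the start are shown for the 10 factors called lower in both lines, each read 5′ to 3′ on the gene's own strand, with E-boxes in capitals:
WDR43 (chr2:28894617-28894716, plus strand): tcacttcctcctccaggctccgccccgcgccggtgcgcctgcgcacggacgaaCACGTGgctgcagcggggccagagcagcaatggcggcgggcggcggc
RCL1 (chr9:4792894-4792993, plus strand): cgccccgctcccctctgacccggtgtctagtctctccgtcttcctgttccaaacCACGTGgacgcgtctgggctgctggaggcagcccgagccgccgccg
NAT10 (chr11:34105579-34105678, plus strand): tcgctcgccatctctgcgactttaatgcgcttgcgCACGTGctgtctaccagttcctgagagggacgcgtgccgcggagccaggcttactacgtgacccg
DDX10 (chr11:108665019-108665118, plus strand): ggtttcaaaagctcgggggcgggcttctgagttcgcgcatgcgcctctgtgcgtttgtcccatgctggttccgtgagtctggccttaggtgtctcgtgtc
DHX37 (chr12:124989082-124989181, minus strand): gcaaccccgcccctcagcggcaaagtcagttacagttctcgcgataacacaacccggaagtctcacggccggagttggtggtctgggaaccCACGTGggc
UTP11 (chr1:38012684-38012783, plus strand): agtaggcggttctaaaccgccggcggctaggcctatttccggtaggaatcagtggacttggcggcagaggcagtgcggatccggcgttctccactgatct
UTP14A (chrX:129906114-129906213, plus strand): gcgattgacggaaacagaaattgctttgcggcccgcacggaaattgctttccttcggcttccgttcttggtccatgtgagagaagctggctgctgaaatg
WDR46 (chr6:33289190-33289289, minus strand): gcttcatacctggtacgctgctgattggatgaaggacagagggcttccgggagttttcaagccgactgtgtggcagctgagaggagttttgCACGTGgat
NOP14 (chr4:2963357-2963456, minus strand): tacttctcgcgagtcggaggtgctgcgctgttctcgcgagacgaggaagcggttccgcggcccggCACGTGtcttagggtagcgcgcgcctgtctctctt
BYSL (chr6:41921449-41921548, plus strand): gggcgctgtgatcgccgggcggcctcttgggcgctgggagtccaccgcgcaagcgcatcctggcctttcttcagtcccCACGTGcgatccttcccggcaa
DDX10 and UTP11 held no E-box in the whole window, and that of UTP14A lay 241 bases before the start, outside the stretch shown.

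Factors with and without an E-box both had negative medians. In MOLM-13, 9 of 18 tested factors with an E-box were called lower, with a median log2 fold change of −0.76, and 6 of 24 without one, with a median of −0.50. In NB4 the counts were 13 of 18 with a median of −0.62 and 16 of 25 with a median of −0.58. For the ETS core the split ran the other way in NB4, with 8 of 18 called with it (median −0.47) and 21 of 25 without it (median −0.68), and in MOLM-13 it was 6 of 18 (median −0.65) and 9 of 24 (median −0.62). These differences were not tested.

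**Figure D3:**
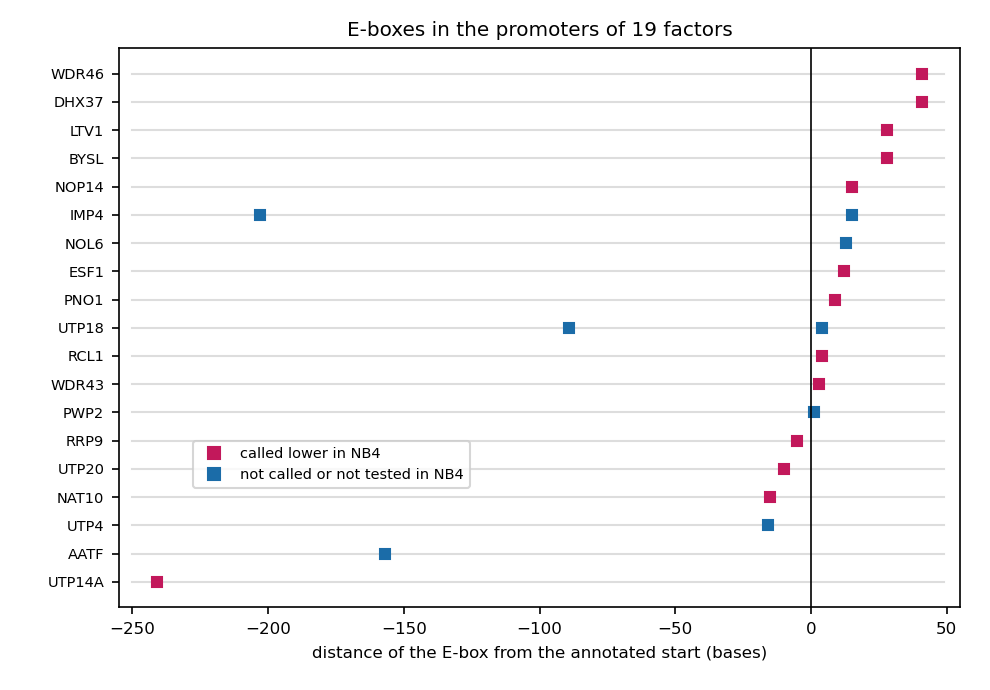
Distance in bases of each E-box from the annotated start (vertical line at 0) for the 19 factors with one, each row being the window of one factor; pink squares mark factors called lower in NB4 and blue squares those not called or not tested there. Of the 21 squares, 17 sit between −16 and 41 bases.

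UTP-A, the subcomplex that binds the front end of the precursor first and also takes part in its transcription, had 2 of 5 tested factors called lower in MOLM-13 (median log2 fold change −0.64) and 5 of 6 in NB4 (median −0.52). WDR43 was at 30.9, 17.4 and 33.8 RPKM with DMSO and 9.14, 13.8 and 13.1 RPKM with FP54 in MOLM-13. All FP54 values were lower, and the log2 fold change was −1.15 ± 0.25 (SE, limma adjusted p = 0.014). In NB4, where WDR43 stood behind only NOP14 and NOB1 in DMSO level, it was at 82.4, 70.2 and 87.6 RPKM with DMSO and 51.5, 58.6 and 57.6 RPKM with FP54, again with no overlap and with a log2 fold change of −0.51 ± 0.10 (SE, limma adjusted p = 0.00164) that stood at the edge of the minimum fold. UTP4, a WD-repeat scaffold of UTP-A, was the other call in MOLM-13 (−0.88 ± 0.20, limma adjusted p = 0.0161), and in NB4 its change of −0.42 ± 0.08 was under the minimum fold (limma adjusted p = 0.00185). UTP15 was at 0.262 to 0.956 RPKM in the MOLM-13 libraries, or 15 to 100 reads, and was not tested there. In NB4 it was at 6.13, 5.84 and 5.27 RPKM with DMSO and 2.79, 2.55 and 3.15 RPKM with FP54. All FP54 values lay well below the DMSO values, with a log2 fold change of −0.999 ± 0.12 (SE, limma adjusted p = 5.93e-05). HEATR1, the large repeat protein of UTP-A, NOL11 and WDR75 were called in NB4 alone, with log2 fold changes between −0.58 and −0.50.

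UTP-B, another early subcomplex rich in WD-repeat proteins, had 0 of 5 called in MOLM-13 by limma, 3 lower at an unadjusted p below 0.05 and 0 called by limma-voom, with a median log2 fold change of −0.39. In NB4 TBL3 (−0.72 ± 0.12) and WDR3 (−0.64 ± 0.09) were called, with limma adjusted p of 0.000674 and 0.000319. WDR36, UTP18 and UTP6 had log2 fold changes from −0.47 to −0.30 in NB4. The sixth member, PWP2, was the least abundant of the 48 factors, at 0.0686 to 0.152 RPKM in MOLM-13 and 0.112 to 0.212 RPKM in NB4, which is 3 to 30 reads. Its transcript has a second place in hg38, at chr21:5130871-5154658, that matches it over 100% of its length at 99.81% identity. Its own locus is at chr21:44107373-44131181. How the authors' counting treated reads that match both places is not given in the sources used here, and the low values of PWP2 are therefore uncertain.

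The U3 and MPP10 group holds RRP9, which binds the U3 RNA, and the MPP10 complex with IMP3 and IMP4, which joins U3 to the precursor. None of 5 was called in MOLM-13 by limma, where 2 were lower at an unadjusted p below 0.05, limma-voom called 0, and the median log2 fold change was −0.45. In NB4, 4 of 5 were called with a median of −0.63. RRP9 was at 9.84, 3.66 and 10.1 RPKM with DMSO and 2.33, 4.12 and 4.15 RPKM with FP54 in MOLM-13. DMSO replicate 2 fell among the FP54 libraries, and the log2 fold change of −1.04 ± 0.37 did not pass (SE, limma adjusted p = 0.0714). In NB4 the same gene was at 34.98, 49.3 and 41.3 RPKM with DMSO and 23.6, 22.4 and 22.5 RPKM with FP54. Here the groups did not overlap, and the log2 fold change was −0.86 ± 0.12 (SE, limma adjusted p = 0.000171). IMP3 was at 17.003, 10.9 and 16.1 RPKM with DMSO and 13.5, 11.3 and 13.7 RPKM with FP54 in MOLM-13, with overlapping groups and a log2 fold change of −0.17 ± 0.19 (SE, limma adjusted p = 0.555). In NB4 it was at 26.8, 30.97 and 31.02 RPKM with DMSO and 16.2, 15.5 and 16.6 RPKM with FP54. That is a log2 fold change of −0.87 ± 0.09 (SE, limma adjusted p = 2.65e-05), among the 8 most negative in NB4. MPHOSPH10 and UTP3 were called in NB4 as well.

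UTP-C had 2 members. In MOLM-13 0 were called by limma or limma-voom and 1 was lower at an unadjusted p below 0.05, and in NB4 RRP7A was called (−0.74 ± 0.12, limma adjusted p = 0.000665). NOL6, the large scaffold protein of UTP-C, was at 4.13, 3.05 and 4.15 RPKM with DMSO and 3.66, 3.35 and 3.91 RPKM with FP54 in MOLM-13. The groups overlapped, with a log2 fold change of −0.04 and a 95% confidence interval from −0.44 to 0.35. In NB4 NOL6 had a log2 fold change of −0.47 ± 0.08 (SE, limma adjusted p = 0.000839), just short of the minimum fold.

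The enzymes had 4 of 7 called lower in MOLM-13 (median log2 fold change −0.67) and 5 of 7 in NB4 (median −0.59). DDX10, a DEAD-box helicase, was at 3.67, 2.56 and 5.54 RPKM with DMSO and 0.770, 1.94 and 1.28 RPKM with FP54 in MOLM-13. It had the most negative value of all 46 factors there, a log2 fold change of −1.51 ± 0.34 (SE, limma adjusted p = 0.0152). DDX10 in NB4 was at 11.3, 11.9 and 11.5 RPKM with DMSO and 5.38, 5.90 and 6.18 RPKM with FP54. The groups were far apart, with a log2 fold change of −0.98 ± 0.09 (SE, limma adjusted p = 1.57e-05). RCL1, a protein of the RNA cyclase family that acts with BMS1, NAT10, the cytidine acetyltransferase of rRNA and tRNA, and DHX37, the helicase that removes U3, were the other calls shared by both lines. Their log2 fold changes in that order were −0.86, −0.72 and −0.67 in MOLM-13 and −0.68, −0.59 and −0.59 in NB4. BMS1, a GTPase, was called in NB4 alone (−0.68 ± 0.09, limma adjusted p = 0.00013).

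FCF1 and EMG1 were called in neither line. FCF1, a protein with a PIN nuclease fold, was at 15.2, 11.9 and 13.6 RPKM with DMSO and 13.95, 14.7 and 16.5 RPKM with FP54 in MOLM-13. It had the single positive value among the 46 factors, a log2 fold change of 0.15 with a 95% confidence interval from −0.17 to 0.48. FCF1 in NB4 was at 11.4, 10.2 and 12.1 RPKM with DMSO and 8.63, 10.2 and 10.2 RPKM with FP54, with overlapping groups and a log2 fold change of −0.21 ± 0.11 (SE, limma adjusted p = 0.115). EMG1, a methyltransferase of the small subunit rRNA, was at 3.50, 3.48 and 3.77 RPKM with DMSO and 3.57, 3.22 and 3.07 RPKM with FP54 in NB4. Its log2 fold change was −0.12, with a 95% confidence interval from −0.36 to 0.12. FCF1 has a copy elsewhere in hg38 at 93.2% identity, and EMG1 shares bases with LPCAT3 on the other strand.

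**Figure D4:**
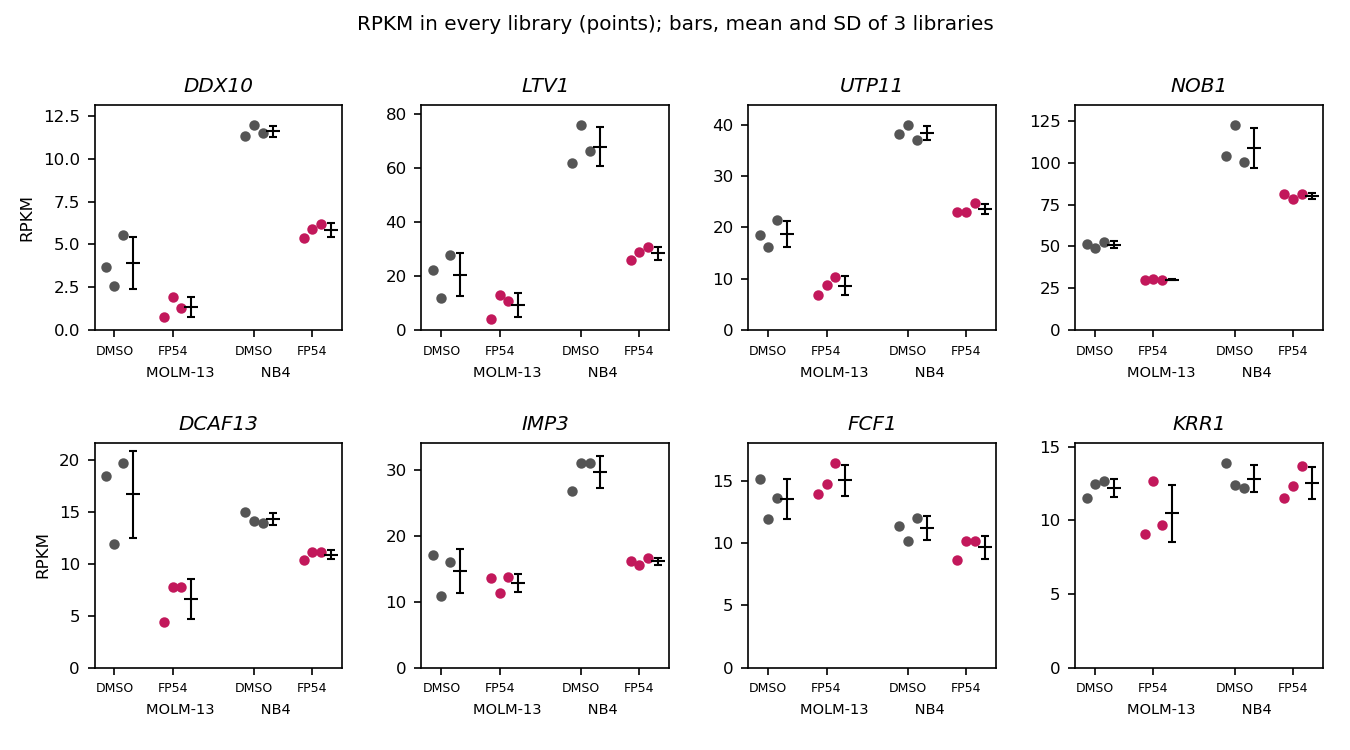
RPKM in every library (points) for 8 factors in MOLM-13 and NB4, with DMSO in grey and FP54 in pink, and bars for the mean and SD of 3 libraries; each axis starts at 0. DDX10, UTP11, NOB1 and DCAF13 have every FP54 point below every DMSO point in both lines, LTV1 and IMP3 overlap in MOLM-13 but not in NB4, and FCF1 and KRR1 overlap in both.

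The other processome proteins had 6 of 15 called lower in MOLM-13 (median log2 fold change −0.58) and 10 of 15 in NB4 (median −0.65). NOP14, which docks on the particle with EMG1 and NOC4L, was the most abundant factor in both lines. In MOLM-13 it was at 81.0, 67.3 and 100 RPKM with DMSO and 26.7, 54.7 and 32.2 RPKM with FP54, a log2 fold change of −1.18 ± 0.25 (SE, limma adjusted p = 0.0123). NOP14 in NB4 was at 183, 189 and 186 RPKM with DMSO and 126, 128 and 125 RPKM with FP54. The replicates were tight there, and the log2 fold change was −0.56 ± 0.07 (SE, limma adjusted p = 0.000133). UTP11, an early-binding processome protein, was at 18.5, 16.2 and 21.4 RPKM with DMSO and 6.75, 8.83 and 10.3 RPKM with FP54 in MOLM-13. No FP54 library reached the DMSO range, with a log2 fold change of −1.12 ± 0.18 (SE, limma adjusted p = 0.00483) that stayed called with any 1 library left out. In NB4 UTP11 had −0.70 ± 0.08 (SE, limma adjusted p = 4.94e-05).

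UTP14A, which activates the helicase DHX37, was at 51.6, 56.6 and 57.8 RPKM with DMSO and 28.5, 29.5 and 28.7 RPKM with FP54 in NB4. Its log2 fold change was −0.93 ± 0.08 (SE, limma adjusted p = 8.12e-06), and in MOLM-13 it was −0.59 ± 0.17 (SE, limma adjusted p = 0.0397). UTP20, a very large scaffold protein, was at 16.3, 12.6 and 15.5 RPKM with DMSO and 6.56, 7.18 and 7.68 RPKM with FP54 in NB4. It fell by 1.04 ± 0.11 on the log2 scale (SE, limma adjusted p = 4.35e-05), while in MOLM-13 its DMSO value of replicate 2, 1.39 RPKM, lay within the FP54 range of 1.18 to 2.07 RPKM and the change did not pass (−0.58 ± 0.35, limma adjusted p = 0.259). NOC4L, the partner of NOP14, was at 19.5, 25.2 and 21.0 RPKM with DMSO and 12.5, 11.6 and 12.1 RPKM with FP54 in NB4. These groups were well apart, with a log2 fold change of −0.85 ± 0.10 (SE, limma adjusted p = 9.24e-05). In MOLM-13 NOC4L had only 16 to 139 reads per library and was not called (−0.50 ± 0.34, limma adjusted p = 0.328). WDR46, a scaffold protein, was called in both lines (−0.80 and −0.73), and ESF1, NGDN, NOL10 and RRP36 in NB4 alone, between −0.69 and −0.58.

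DCAF13 and PDCD11 were called in MOLM-13 alone. DCAF13, the human Sof1 protein and also a substrate receptor of a CUL4 ubiquitin ligase, was at 18.4, 11.9 and 19.7 RPKM with DMSO and 4.37, 7.70 and 7.73 RPKM with FP54 in MOLM-13. This was a log2 fold change of −1.33 ± 0.25 (SE, limma adjusted p = 0.00864). In NB4 it was at 14.96, 14.05 and 13.9 RPKM with DMSO and 10.3, 11.1 and 11.1 RPKM with FP54, again with no overlap but a smaller log2 fold change of −0.39 ± 0.09 (SE, limma adjusted p = 0.00312). PDCD11, the human Rrp5 protein, which works in both subunits, was at 18.4, 10.5 and 18.9 RPKM with DMSO and 5.37, 8.32 and 9.31 RPKM with FP54 in MOLM-13, with a log2 fold change of −1.04 ± 0.26 (SE, limma adjusted p = 0.0232). In NB4 PDCD11 was at 47.003, 44.05 and 48.9 RPKM with DMSO and 35.2, 36.4 and 34.6 RPKM with FP54, also without overlap (−0.39 ± 0.08, limma adjusted p = 0.00193).

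Among these proteins, KRR1, AATF and UTP23 were called in neither line. KRR1, which binds RNA through KH domains, was at 13.9, 12.4 and 12.2 RPKM with DMSO and 11.5, 12.4 and 13.7 RPKM with FP54 in NB4. The groups were interleaved, and the 95% confidence interval of the log2 fold change ran from −0.25 to 0.18. AATF, which forms a complex with NGDN and NOL10, was at 16.6, 22.6 and 20.0 RPKM with DMSO and 16.9, 16.2 and 16.4 RPKM with FP54 in NB4 (−0.25 ± 0.11, limma adjusted p = 0.0886), although NGDN (−0.69) and NOL10 (−0.69) were called there. UTP23, a relative of FCF1, was at 16.6, 12.5 and 16.0 RPKM with DMSO and 12.8, 11.3 and 14.8 RPKM with FP54 in MOLM-13. Those ranges overlapped, with a log2 fold change of −0.21 (95% confidence interval −0.57 to 0.15). In NB4 UTP23 was at 5.15, 4.54 and 5.04 RPKM with DMSO and 3.74, 3.85 and 4.54 RPKM with FP54, with a log2 fold change of −0.28 (95% confidence interval −0.53 to −0.03).

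The late factors, which finish the 40S subunit after the processome has come apart, had 4 of 7 called lower in each line, with a median log2 fold change of −0.94 in MOLM-13 and −0.61 in NB4. BYSL was the call common to both. BYSL, which acts with PNO1 on nuclear pre-40S particles, was at 9.36, 4.15 and 8.60 RPKM with DMSO and 2.53, 3.37 and 3.73 RPKM with FP54 in MOLM-13. Every FP54 library was lower, and the log2 fold change was −1.11 ± 0.29 (SE, limma adjusted p = 0.0261). The value for BYSL in NB4 was −0.76 ± 0.10 (SE, limma adjusted p = 0.000105). LTV1, an export and assembly factor, was at 61.9, 75.7 and 66.1 RPKM with DMSO and 25.9, 28.7 and 30.6 RPKM with FP54 in NB4. This was the most negative value among the 47 factors of that line, a log2 fold change of −1.25 ± 0.10 (SE, limma adjusted p = 5.12e-06). In MOLM-13 LTV1 was at 22.2, 11.7 and 27.6 RPKM with DMSO and 4.08, 12.9 and 10.8 RPKM with FP54. DMSO replicate 2 fell below FP54 replicate 2, and a log2 fold change of nearly the same size, −1.21 ± 0.41, was not called (SE, limma adjusted p = 0.0638).

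RIOK1, an atypical kinase of cytoplasmic pre-40S particles, was at 28.7, 18.2 and 33.0 RPKM with DMSO and 8.54, 13.9 and 10.7 RPKM with FP54 in MOLM-13, a log2 fold change of −1.25 ± 0.24 (SE, limma adjusted p = 0.00867). RIOK1 in NB4 was at 53.1, 50.7 and 50.8 RPKM with DMSO and 35.6, 39.9 and 38.2 RPKM with FP54, with no overlap but under the minimum fold (−0.44 ± 0.08, limma adjusted p = 0.00101). Its relative RIOK2 showed the reverse order of size, with −0.32 ± 0.13 (SE, limma adjusted p = 0.108) in MOLM-13 and −0.61 ± 0.10 (SE, limma adjusted p = 0.000431) in NB4. NOB1, the nuclease that makes the last cut of the small subunit rRNA, was at 51.6, 48.97 and 52.8 RPKM with DMSO and 29.9, 30.5 and 29.95 RPKM with FP54 in MOLM-13. It was the factor with the smallest adjusted p in MOLM-13, with −0.76 ± 0.12 on the log2 scale (SE, limma adjusted p = 0.00454). In NB4 NOB1 was at 104, 122 and 100 RPKM with DMSO and 81.6, 78.2 and 81.2 RPKM with FP54, with no overlap and a log2 fold change of −0.43 ± 0.09 (SE, limma adjusted p = 0.00253). PNO1, the partner of NOB1, had few reads in MOLM-13, at 2.90, 0.746 and 2.67 RPKM with DMSO and 0.456, 0.978 and 1.55 RPKM with FP54. Its interval there was wide (log2 fold change −0.94, 95% confidence interval −2.06 to 0.17), and in NB4, with 12.3 times the DMSO level, PNO1 was called (−0.81 ± 0.10, limma adjusted p = 8.61e-05).

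The difference of the FP54 effect between the lines was tested in 1 limma model of both lines with an interaction term, which shares 1 estimate of the spread although the libraries of MOLM-13 varied more. Of 46 factors, 2 passed an adjusted p of 0.05, where 3.75% of the 8849 genes had a lower effect in NB4 and 10.5% a higher one. IMP3 had a lower effect in NB4, by −0.70 ± 0.22 (SE, limma adjusted p = 0.0422). DCAF13 had a lower effect in MOLM-13, the difference of NB4 minus MOLM-13 being 0.94 ± 0.30 (SE, limma adjusted p = 0.0467). The next were RIOK1 at 0.80 ± 0.28 (SE, limma adjusted p = 0.0669) and PDCD11, the fourth largest in size, at 0.64. Across factors, 21 of 46 had the lower value in NB4, so neither line was lower throughout. The log2 fold changes of the lines had a Pearson r of 0.35 and a Spearman rho of 0.25 over the 46 factors, which is a description across genes that share the same 12 libraries. Leaving 1 library number out of both lines gave between 0 and 6 factors past the threshold. The difference for IMP3 missed the threshold when DMSO replicate 2 or 3 or any FP54 replicate was left out, and that for DCAF13 when DMSO replicate 1 or 3 or any FP54 replicate was. Over all alternatives the limma adjusted p ran from 0.0115 to 0.147 for IMP3 and from 0.0194 to 0.19 for DCAF13.

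**Figure D5:**
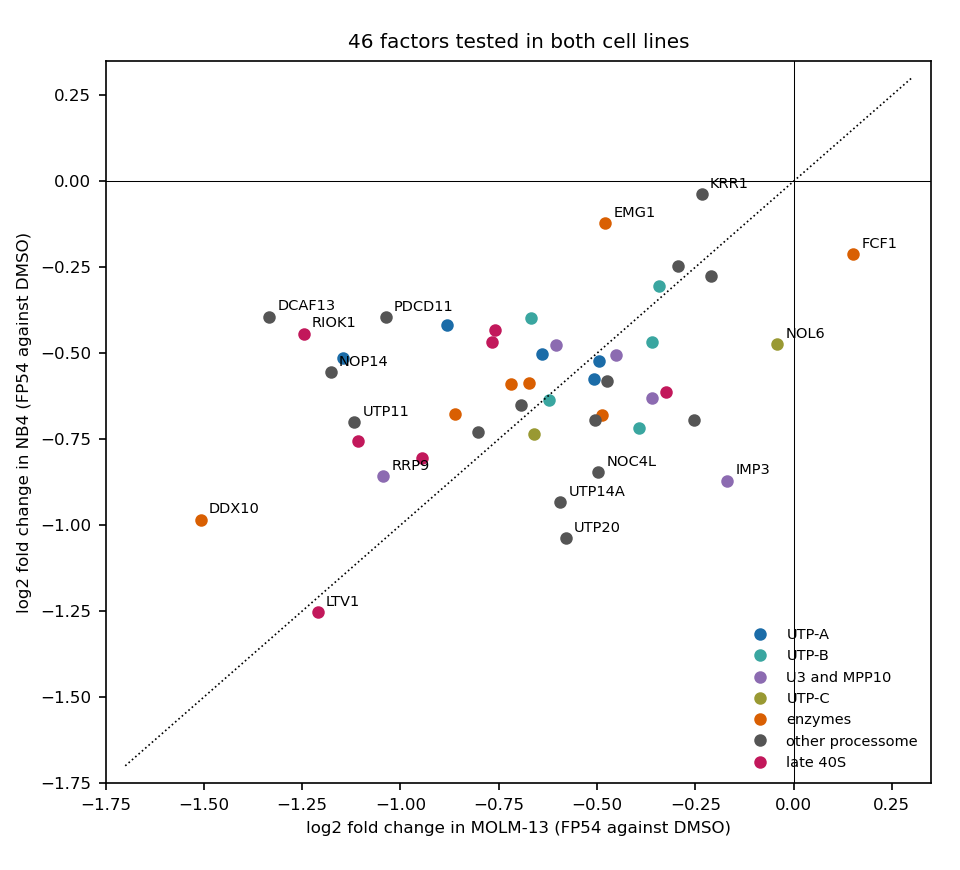
Log2 fold change with FP54 against DMSO of the 46 factors tested in both lines, MOLM-13 on the horizontal and NB4 on the vertical axis, coloured by role; the dotted line marks equal change. LTV1 and DDX10 sit at the lower left, DCAF13 and RIOK1 above the line, and IMP3 below it at −0.17 and −0.87.

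In cells that received DMSO the factors were listed at higher levels in NB4. With DMSO, 41 of 46 had a higher mean RPKM in NB4 than in MOLM-13, with a median ratio of 2.03, against 54.0% of 8849 genes and a median ratio of 1.08. The ratio ran from 0.326 for UTP23 to 12.3 for PNO1. The tables were normalized separately, so these levels were set side by side without a test. Within MOLM-13 the mean DMSO level ran from 82.9 RPKM for NOP14, 61.1 RPKM for ESF1 and 51.1 RPKM for NOB1 down to 2.11 RPKM for PNO1, 0.655 RPKM for UTP15 and 0.143 RPKM for PWP2. Within NB4 it ran from 186 RPKM for NOP14, 109 RPKM for NOB1 and 80.1 RPKM for WDR43 down to 4.91 RPKM for UTP23, 3.58 RPKM for EMG1 and 0.178 RPKM for PWP2. ESF1 was at 59.1, 46.7 and 77.5 RPKM with DMSO and 28.6, 50.4 and 34.95 RPKM with FP54 in MOLM-13, with overlapping groups. RPKM divides by the length of all annotated exons of a gene, and these lengths ran to 21331 bases for NOL10 and 18059 bases for DDX10, which lowers their RPKM against genes with fewer annotated exons.

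Other genes of ribosome synthesis, taken from lists of general knowledge, were read beside these factors. Of all genes tested, 9.04% were called lower and 9.3% higher in MOLM-13, and 10.7% and 18.6% in NB4. Of 46 listed 60S assembly factors, 18 of 44 tested were called lower and 0 higher in MOLM-13 (median log2 fold change −0.63). In NB4, 28 of 46 were called lower and 0 higher (median −0.58). The lowest were NOP16 (−1.83) and BOP1 (−1.67) in MOLM-13 and BOP1 (−1.23) and RRS1 (−1.21) in NB4, all called, and the highest were WDR74 (0.62) and DDX24 (0.07) in MOLM-13 and NMD3 (0.20) and RSL24D1 (0.14) in NB4, none called. Of 26 other 40S biogenesis genes, 3 of 23 were called lower and 0 higher in MOLM-13 (median −0.29). There 8 were lower and 0 higher at an unadjusted p below 0.05, against 17.4% and 17.6% of all genes. In NB4, 6 of 24 were called lower and 1 higher (median −0.43). RRP12, a late export factor, was the lowest in both lines (−1.47 and −1.12, both called), followed by NOP58 (−1.01, called) in MOLM-13 and ABT1 (−0.75, called) in NB4. RIOK3, another RIO kinase, was the highest in both, at 0.19 in MOLM-13, not called, and 0.68 in NB4, called higher (limma adjusted p = 0.00198) but not with median-ratio scaling (0.48). CSNK1D (0.16) in MOLM-13 and CSNK1E (0.44) in NB4 came next and were not called.

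The 40S ribosomal proteins, which these factors assemble, had medians at or above 0. None of 32 tested was called in MOLM-13 by limma or limma-voom (1 lower, RPS26, with median-ratio scaling). By limma 9.04% of all genes were called lower there and 9.3% higher. At an unadjusted p below 0.05, 1 was lower and 1 higher in MOLM-13, against 17.4% and 17.6% of all genes. The median log2 fold change of these proteins was 0.05. In NB4 1 was called lower and 1 higher, against 10.7% and 18.6% of all genes. At an unadjusted p below 0.05, 2 were lower and 21 higher, against 24.7% and 33.3% of all genes. The median was 0.28, or 0.08 with median-ratio scaling and 0.34 with quantile normalization, where 8 were called higher (12.99% of all genes). RPS26 was the lowest in both lines (−0.49 in MOLM-13 and −0.68, called, in NB4), followed by RPS10 (−0.31) and FAU (−0.31), and RPS27 the highest (0.44 and 0.61, the latter called), followed by RPS28 (0.41 and 0.48). RPS27 in NB4 was not called with median-ratio scaling (0.41).

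Several factors share sequence with other genes, which the counting could split or mix. A second place in hg38 that matched at least 50% of the transcript at 90% identity or more was found for 12 of the 48: BMS1, DCAF13, ESF1, FCF1, NOB1, NOL11, PNO1, PWP2, RRP7A, UTP11, UTP14A and UTP18. For the 11 other than PWP2 the identity was between 90.1% and 96.2%. Coding genes overlap 14 of the 48, on the opposite strand for 13 (CHTF8 with UTP4, ANKRA2 with UTP15, LGALS8 with HEATR1 and SNX33 with IMP3 among them). The kit marked strand, but whether the counting used it is not given in the sources used here, so reads of these factors and their partners may be mixed. The mean RPKM of 416 olfactory receptor genes, which myeloid cells are not known to use, was 0.0496 to 0.0549 in the FP54 libraries of NB4 and 0.00168 to 0.00372 in its DMSO libraries, and subtracting it from each library changed no call of any factor. The amount is small beside the levels of the tested factors, so the subtraction could hardly change a call. It does not measure stray reads at the factors' own loci.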

How the data were processed

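The authors enriched poly(A) RNA in 2 rounds and made stranded libraries, and their reads were trimmed (cutadapt 4.8) and deduplicated, aligned to hg38 (STAR 2.7.11b) and counted on coding genes of GENCODE 42 (featureCounts 2.0.3), and the deposited values are RPKM for 20411 genes. The gene lengths used are not given in the sources used here. With the exon lengths of GENCODE 44, found for 20330 genes, 98.7 to 99.34% of low values came out as whole reads (tolerance 0.05), which gave the depths. That 1 table belongs to NB4 is known from its name.

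Each line was fitted with limma 3.58.1 in R 4.3.3 on log2(RPKM + 0.1) with eBayes set to follow the mean level, on genes averaging 1 RPKM or more, 3 libraries against 3. The pseudocount understates fold changes of low genes. The study's cutoff was kept (p below 0.01, and 0.5 or more in size on the log2 scale), and p-values were adjusted by Benjamini-Hochberg over all genes tested. Limma was the main test because the deposited unit is RPKM, and the recovered reads entered limma-voom as an alternative. An exact permutation test of 3 against 3 cannot go below a two-sided p of 0.1. On simulated data 85% and 95.5% of 200 genes given a log2 change of 1 were found again in MOLM-13 and NB4, with 78 and 21 false calls, and 90.5% of 189 in the interaction, with 6. The noise was drawn separately for each gene, so these rates do not cover a library that shifts many genes together.

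The alternatives tried were other pseudocounts (1 and 0.01), other filters (none, or a mean of at least 5 RPKM), median-ratio and quantile scaling, a block for the replicate number, robust eBayes, eBayes with no trend, limma-voom on recovered reads, other cutoffs, leaving out each library and another promoter window; subtraction of the olfactory receptor level and the promoter window of 50 bases on either side of the start were added after seeing the data. Copies were sought with minimap2 2.31-r1302. Python 3.11.15, pandas 2.3.3 and matplotlib 3.10.9 were used.

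The members, lists and tests were chosen with earlier results of these data known. Values in every library are given for the 8 lowest and 4 highest log2 fold changes of a line, the 4 largest differences between the lines, and the 3 highest and 3 lowest DMSO levels, in general in the line where the rule chose them. From other lists the 2 lowest and 2 highest per line are named, with FTO and the cell type markers.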

Additional observations from a re-analysis of the deposited data

Results flagged for a closer look

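The effect of FP54 on 2 of the 46 factors differed between the lines by the limma interaction at an adjusted p below 0.05, where 14.2% of the 8849 genes tested did. The count was 0 in 3 of the 6 fits that left out 1 library number and with eBayes without a trend. For IMP3 the difference of NB4 minus MOLM-13 was −0.70 on the log2 scale, with a 95% confidence interval from −1.16 to −0.24. All 3 of its FP54 libraries lay below all DMSO libraries in NB4, and the groups overlapped in MOLM-13. For DCAF13 the difference was 0.94, with an interval from 0.31 to 1.57, and the FP54 libraries lay below all DMSO libraries in both lines. DCAF13 has 2 copies elsewhere in hg38 and overlaps SLC25A32, and IMP3 overlaps SNX33, and their part in these differences was not tested.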

How the results depend on the processing

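No direction among the factors called in either line reversed under any alternative. With no filter, 9 factors of MOLM-13 were lower at an adjusted p below 0.05 (3.49% of all genes). Where p below 0.05 and a change of 1 or more on the log2 scale were required, 10 were lower in MOLM-13 (3.35% of all genes) and 2 in NB4 (1.40%). The median log2 fold change in NB4 was −0.56 with a pseudocount of 1, −0.79 with median-ratio scaling and −0.50 with quantile normalization, and these scalings moved the median of all genes by −0.20 and −0.10, while the cause of the rest was not tested. Differences between the lines passed for 1 factor with a mean of at least 5 RPKM, 4 with median-ratio scaling, 5 with quantile normalization and 0 with eBayes without a trend, where 4 were at an unadjusted p below 0.05 and limma-voom gave 3. As reported, 2 factors passed, where 3.75% of all 8849 genes had a lower effect in NB4 and 10.5% a higher one. The shares of all genes under the alternatives, also with a block or with libraries left out, are not given here. These counts are therefore not read as a result about the factors. E-boxes stood in 9.09% of the factors' windows when only the last 100 bases before the start were read, against 5.11% of genes tested in MOLM-13.

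With 1 library left out, calls in MOLM-13 ranged from 10 to 29, calls at an adjusted p from 4 to 30 and the median from −0.85 to −0.48. In NB4 calls ranged from 28 to 33, and differences between the lines from 0 to 6. Where a count was 0, between 3 and 7 factors were at an unadjusted limma p below 0.05. Replicate numbers were not taken to pair the samples, since same-numbered libraries deviated with correlations of −0.26, −0.13 and −0.06 in MOLM-13 and −0.14, 0.07 and 0.12 in NB4. In MOLM-13, differently numbered libraries reached 0.59 (DMSO 1 with FP54 3), 0.49 (DMSO 2 with FP54 1) and 0.47 (DMSO 3 with FP54 2). The remaining pairs there were at −0.27, −0.37 and −0.46. Whether libraries were paired under other numbers is not known from the labels, and no fit with such pairs was run. With the replicate number as a block, 17 factors were lower in MOLM-13 and 31 in NB4, and 1 difference between the lines passed. Depth limits PWP2, UTP15, PNO1 and NOC4L most, with 3 to 16 reads in the thinnest library.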
